A study of Homo sapiens with 6 samples.

Results

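The ZNF zinc finger genes of chromosome 19 were represented by 217 of the 37879 targets of a human expression array, chosen as the targets whose symbol is ZNF followed by a digit and whose chromosome is given as 19. The array was hybridized with RNA that came down with an anti-FLAG antibody from HEK293T cells, an established human embryonic kidney line. Before lysis the cells had been held in prometaphase, the early mitotic stage before chromosomes align, with nocodazole, which blocks spindle assembly (50 ng/ml for 15 h per the labels). The cells of the Stau1 IP group carried a plasmid coding for Stau155-FLAG, a tagged isoform of the double-stranded RNA-binding protein Staufen1 under a viral promoter, and those of the control IP group carried the empty vector. Each group had 3 arrays, and the comparison asks which transcripts are enriched with Stau155-FLAG in prometaphase. Nothing in the labels says that the arrays of a group came from separate cultures, so the p-values measure only the spread between these samples, which may be technical. No array of the lysate before immunoprecipitation was used here, so a transcript more abundant in the cells and a transcript pulled down in a larger share cannot be told apart.

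Most proteins of this family bind DNA through tandem C2H2 zinc fingers, each of which folds around a zinc ion held by a pair of cysteines and a pair of histidines. Many also carry a KRAB domain, which recruits the corepressor TRIM28 and, through it, the histone methyltransferase SETDB1, and so silences transposable elements and other targets. Chromosome 19 holds large clusters of these genes, which grew by tandem duplication, so that neighbours are often close in sequence, and a transcript can share stretches with its relatives. The probe sequences were not used here, and how far a probe could also capture a relative was not tested.

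All 217 members could be placed on chromosome 19 in RefSeq, 211 by their symbol and 6 by an older symbol. RefSeq types 211 as protein coding and 6 as transcribed pseudogenes (ZNF321, ZNF702P, ZNF781, ZNF818, ZNF826 and ZNF833). A target was counted as detected on an array where its deposited detection p was under 0.05. That p did not follow the signal alone. On control IP 1 the Staufen1 gene STAU1, at a signal of 2499, had a detection p of 0.0542, while the lowest detected signal was 85.9. A target not detected is therefore not always near background. By the rule of p under 0.05, 79 members (36.4%) were detected on all 6 arrays, against 26.1% of all targets and 42.8% of the 1372 other targets of chromosome 19. Another 26 were detected on 3 to 5 arrays, 30 on 1 or 2, and 82 (37.8%) on none. Of the 270 ZNF targets that lie on other chromosomes or have none given, 49.3% were detected on all 6 arrays. Between 86 and 112 members were detected on a single array, fewest on the array labelled Stau1 IP 2 and most on Stau1 IP 1.

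The arrays numbered 2 went against their labels in part of these measures, and this bears on every value that follows. Over the 79 members detected on all 6 arrays, the normalized values of Stau1 IP arrays 1 and 3 had a Pearson correlation of 0.995. The array labelled control IP 2 correlated at 0.982 and 0.985 with those same arrays, above its 0.957 and 0.959 with control IP arrays 1 and 3. The array labelled Stau1 IP 2 correlated at 0.951 and 0.970 with control IP arrays 1 and 3, and at 0.928 and 0.937 with Stau1 IP arrays 1 and 3. These correlations run across genes, which are not independent replicates, and share the spread of levels between genes. For 57 of the 79 members (72.2%) the array labelled control IP 2 lay nearer to the mean of Stau1 IP arrays 1 and 3 than to that of control IP arrays 1 and 3, against 48.9% of the 9884 targets detected on all 6 arrays. The array labelled Stau1 IP 2 lay nearer to control IP arrays 1 and 3 for 44 of the 79 and nearer to Stau1 IP arrays 1 and 3 for 35 (44.3%), against 38.1% of those targets. The signals of STAU1, the gene of the tagged protein, went against the labels of the same arrays. In the control IPs they were 2499, 3246 and 2758 for replicates 1, 2 and 3, and in the Stau1 IPs they were 2845, 1857 and 3130 in the same order. The highest STAU1 signal was on the array labelled control IP 2 and the lowest on that labelled Stau1 IP 2, while Stau1 IP arrays 1 and 3 were above control IP arrays 1 and 3. After normalization the order was the same, with log2 values of 11.65 on the array labelled control IP 2 and 11.03 on that labelled Stau1 IP 2. Whether the probe reads the RNA of the plasmid was not tested. Results are therefore given by the labels, with 3 arrays a group, and again without the arrays numbered 2, with 2 arrays a group, while the values on the arrays numbered 2 are shown singly. No array was moved to another group. Arrays 1 and 3 were set apart with earlier results of these data known, so the smaller comparison describes those 4 arrays.

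By the labels, no member passed a 2.5-fold change in either direction together with an unadjusted p under 0.05 in limma, against 0.00264% of all targets called enriched and 0% called depleted. With limma 0 members passed an adjusted p of 0.05, as 0% of all targets did in each direction. At an unadjusted p under 0.05, 13 members were higher and 12 were lower in Stau1 IP, against 4% and 4.83% of all targets. The methods' t-test and neqc, another background correction and scale, also gave 0 members at the adjusted threshold. The fold threshold was reached by 1 member, ZNF329, when the array labelled Stau1 IP 2 was left out. Among the 105 members detected on at least 3 arrays the median log2 fold change was 0.01, with 59 above 0. It was 0.00 over the 12774 targets so detected, of which 6483 were above 0. The middle 50% of those members ran from -0.11 to 0.21. For the 696 other targets of chromosome 19 so detected the median was 0.11, with 493 above 0, and for the 164 other ZNF targets it was 0.00.

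**Figure D1:**
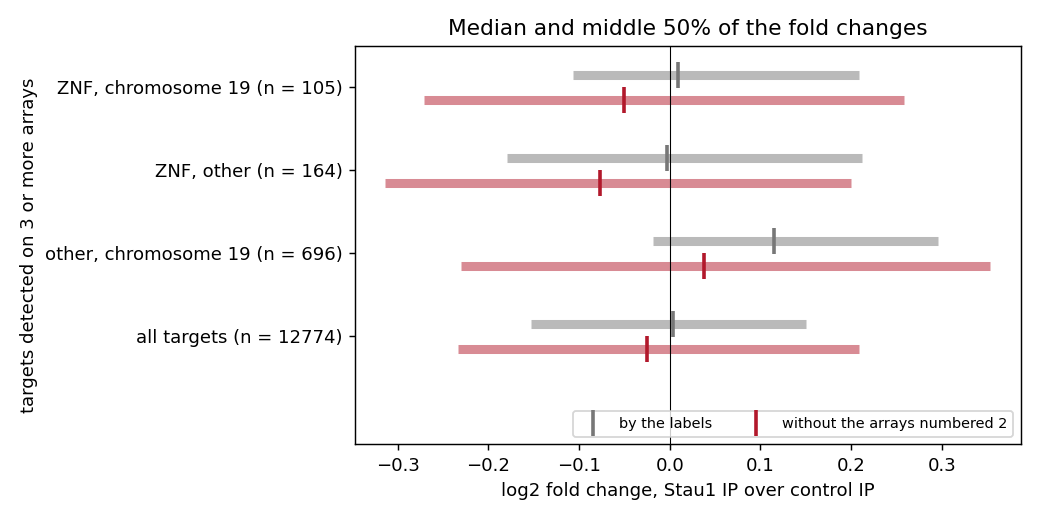
Log2 fold change of Stau1 IP over control IP (x axis) for the targets detected on 3 or more arrays in each of 4 groups of targets; the vertical tick is the median and the bar the middle 50% of targets, in grey by the labels and in red without the arrays numbered 2. By the labels the medians of the chromosome 19 ZNF genes (0.01) and of all targets (0.00) lie near 0, and that of the other chromosome 19 targets is 0.11.

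Without the arrays numbered 2, 6 members were enriched and 0 were depleted, against 0.62% and 0.029% of all targets. The 6 were ZNF329, ZNF358, ZNF529, ZNF562, ZNF573 and ZNF787. They came to 5.71% of the 105 members detected on 3 or more arrays, where 1.78% of all targets so detected were called enriched. ZNF573 entered the 105 only through the array labelled control IP 2 and Stau1 IP arrays 1 and 3, where it was high, so the filter favoured its call. At an adjusted p under 0.05, 15 members were higher and 7 were lower in Stau1 IP, against 3.52% and 2.68% of all targets. Of these, 12 higher and 7 lower members were detected on 3 or more arrays, 11.4% and 6.67% of the 105, near the 9.82% and 7.51% of all targets so detected. The counts rested on single arrays: the 6 enriched members became 1 without control IP 1, 3 without Stau1 IP 1 and 3 without Stau1 IP 3. The 22 members past the adjusted threshold became 62 without control IP 1 and 58 without control IP 3, and 0 without either Stau1 IP array. The counts depended on the processing. The 22 members past the adjusted threshold became 0 with the methods' t-test, 3 with neqc and 8 with another constant term of the transformation. The 6 enriched members became 3 with neqc and 0 with that constant term. On simulated arrays, with changes planted in bright targets only, the adjusted threshold let through more unchanged targets than its nominal rate. How far this holds for the adjusted p of dim members given below was not tested. The median log2 fold change over the 105 members was -0.05, with 45 above 0, and over all targets so detected it was -0.02.

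**Figure D2:**
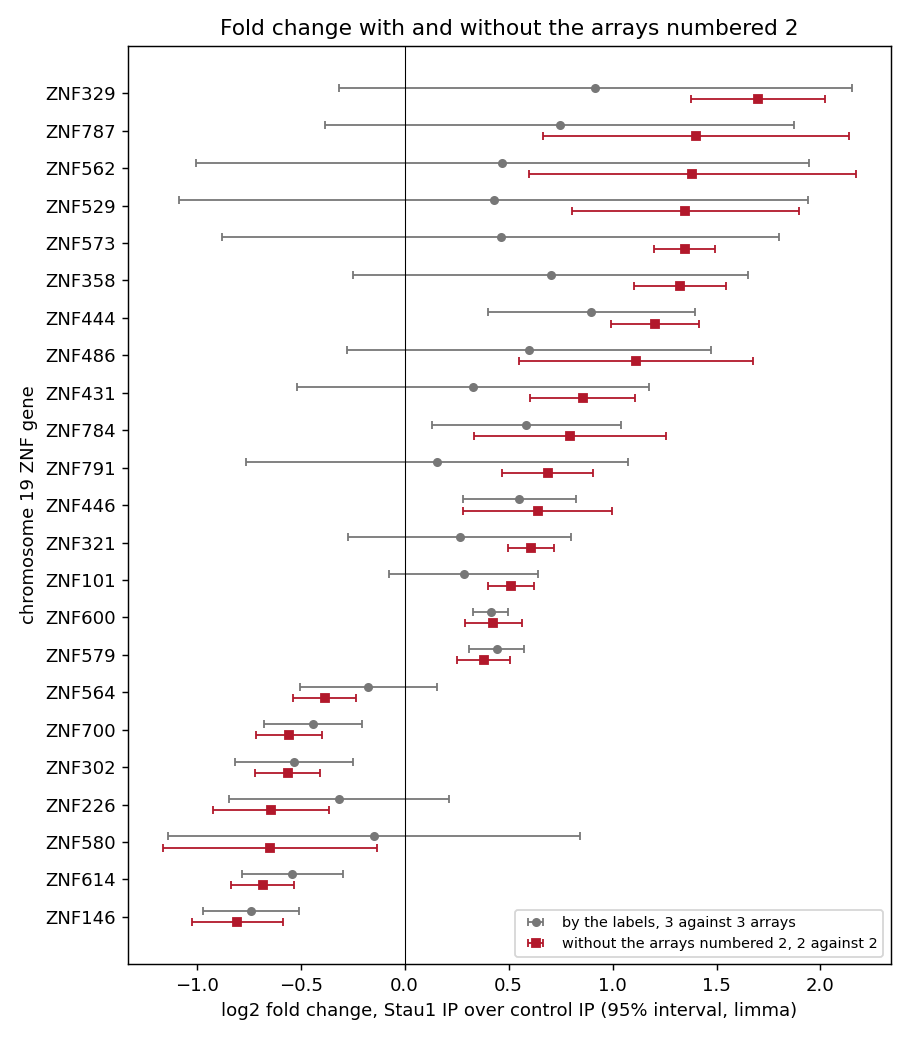
Log2 fold change of Stau1 IP over control IP (x axis) with its 95% interval from limma for 23 chromosome 19 ZNF genes, in grey by the labels and in red without the arrays numbered 2; both comparisons share arrays 1 and 3 of each group. ZNF329 has the highest value in both, at 0.92 and 1.70, and ZNF146 the lowest, at -0.74 and -0.80, while the grey intervals of ZNF329, ZNF529 and ZNF573 cross 0.

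Values are given below as the deposited signals, in intensity units that include background, always in the order of the replicate numbers, the control IPs first. Fold changes are on the normalized log2 scale, and levels of different genes are not compared. The transformation shrinks the changes of dim targets, but normalization also moved values between arrays, so near-equal signals could end apart. SETDB1, for example, had signals of 538 on control IP 1 and 535 on Stau1 IP 3, with normalized log2 values of 9.55 and 9.20. ZNF329, a C2H2 zinc finger protein, had signals of 135, 352 and 141 in the control IPs and of 689.5, 158 and 587 in the Stau1 IPs. The arrays labelled control IP 2 and Stau1 IP 2 each lay on the side of the other group, and the groups overlapped. The log2 fold change was 0.92 ± 0.49 (SE, adjusted p = 0.717 in limma) by the labels and 1.70 ± 0.12 (adjusted p = 0.0112) without the arrays numbered 2, the largest of any detected member in both comparisons. ZNF573, a KRAB zinc finger protein, gave 82.5, 323 and 92.5 in the control IPs and 301, 99.1 and 331 in the Stau1 IPs. It was detected on the array labelled control IP 2 and on Stau1 IP arrays 1 and 3 and on no other. Its log2 fold change was 0.46 ± 0.54 (adjusted p = 0.903 in limma) by the labels and 1.35 ± 0.05 (adjusted p = 0.00635) without the arrays numbered 2. It was not detected on control IP arrays 1 and 3. With undetected values set no lower than the lowest detected value of the array, it was 2.52-fold higher in Stau1 IP. This figure leaves out the spread between arrays.

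ZNF529 and ZNF562, both KRAB zinc finger proteins, had the same shape across the arrays. The ZNF529 signals were 259, 846 and 424 in the control IPs and 1191, 200.4 and 1065 in the Stau1 IPs. The ZNF562 signals were 114, 563 and 222 in the control IPs and 568, 149 and 571 in the Stau1 IPs. For ZNF562 the array labelled control IP 2 stood at the level of Stau1 IP arrays 1 and 3, and for both genes the array labelled Stau1 IP 2 stood below control IP 3. By the labels the log2 fold changes were 0.43 ± 0.60 for ZNF529 (adjusted p = 0.926 in limma) and 0.47 ± 0.59 for ZNF562 (adjusted p = 0.913). Without the arrays numbered 2 ZNF529 was higher by 1.35 ± 0.20 (adjusted p = 0.0401). ZNF562 stood at 1.38 ± 0.29, and its adjusted p of 0.0852 in limma missed the threshold.

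ZNF358 and ZNF787, zinc finger proteins of the C2H2 type, were the other enriched members. The ZNF358 signals were 3856, 8599 and 4264 in the control IPs and 9098, 5777 and 10923 in the Stau1 IPs. The ZNF787 signals were 1119, 3024 and 2127 in the control IPs and 4228, 1797 and 4783 in the Stau1 IPs. For both genes the array labelled control IP 2 was the highest control, above the array labelled Stau1 IP 2, and without those arrays the groups did not overlap. By the labels the log2 fold changes were 0.70 ± 0.38 for ZNF358 (adjusted p = 0.719 in limma) and 0.74 ± 0.45 for ZNF787 (adjusted p = 0.761). They were 1.33 ± 0.08 (adjusted p = 0.00997) and 1.40 ± 0.27 (adjusted p = 0.0710) without the arrays numbered 2. ZNF486, a KRAB member, had signals of 6234, 12284 and 9079 in the control IPs and of 14869, 9251 and 15038 in the Stau1 IPs. Its array labelled control IP 2 again lay between Stau1 IP 2 and Stau1 IP 1, and the log2 fold change was 0.60 ± 0.35 by the labels and 1.11 ± 0.21 without the arrays numbered 2, with adjusted p of 0.750 and 0.0656 in limma.

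**Figure D3:**
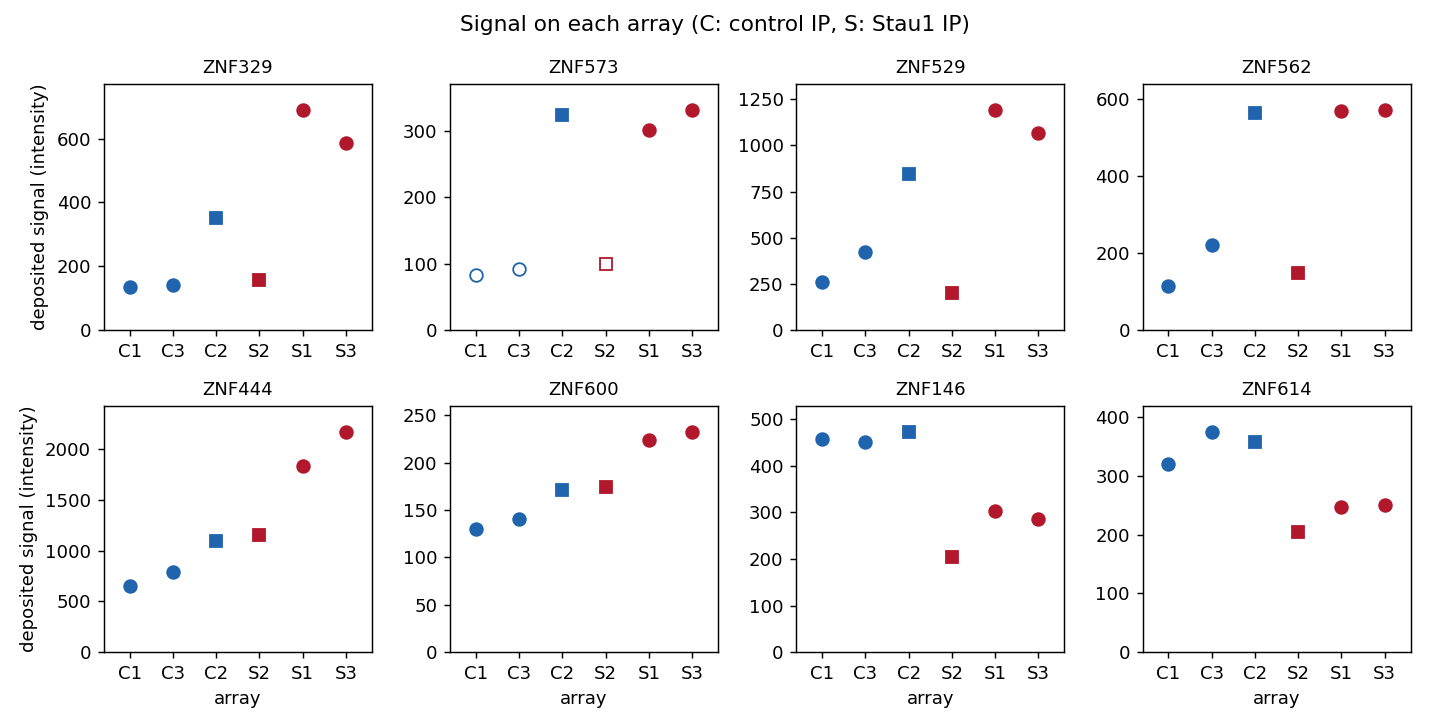
Deposited signal (y axis, intensity units with background, from 0 and with its own range in each panel) of 8 chromosome 19 ZNF genes on each array, control IPs in blue and Stau1 IPs in red, with squares for the arrays numbered 2 and open symbols where the gene was not detected. For ZNF329, ZNF529, ZNF562 and ZNF573 the array labelled control IP 2 is the highest control and the array labelled Stau1 IP 2 the lowest Stau1 IP, while for ZNF444 and ZNF600 every Stau1 IP array lies above every control.

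A smaller set kept to the labels on all 6 arrays after normalization. ZNF444, which carries a SCAN domain, a protein-protein contact domain of some zinc finger proteins, had signals of 652, 1098 and 792 in the control IPs and of 1837, 1151 and 2166 in the Stau1 IPs. The groups did not overlap, although the arrays numbered 2 lay close to each other. The log2 fold change was 0.90 ± 0.20 (unadjusted p = 0.00503 and adjusted p = 0.274 in limma) by the labels and 1.20 ± 0.08 (adjusted p = 0.0107) without the arrays numbered 2. ZNF600, a KRAB zinc finger protein, had signals of 130.4, 172 and 141 in the control IPs and of 224, 174 and 232 in the Stau1 IPs. The array labelled Stau1 IP 2 was just above the highest control in signal, and ZNF600 had the smallest p of the members by the labels (unadjusted p = 3.43e-05, adjusted p = 0.0929 in limma). Its log2 fold change was 0.41 ± 0.03 by the labels and 0.43 ± 0.05 (adjusted p = 0.0249) without the arrays numbered 2. ZNF579 gave 203, 269.6 and 228 in the control IPs and 345, 286 and 381 in the Stau1 IPs. All Stau1 IP arrays were above all controls, and the log2 fold changes were 0.44 ± 0.05 (adjusted p = 0.139 in limma) by the labels and 0.38 ± 0.05 (adjusted p = 0.0265) without the arrays numbered 2. On the arrays numbered 2 the signals of ZNF444, ZNF600 and ZNF579 lay close together, so the distance between those arrays rests in part on the normalization. By the labels, neqc gave log2 fold changes of 0.059 for ZNF600 and 0.105 for ZNF579, and a larger one for ZNF444. Quantile normalization gave 0.386 for ZNF600 and 0.447 for ZNF579. ZNF446, with a SCAN and a KRAB domain, and ZNF784 also had no overlap between the labelled groups after normalization, with log2 fold changes of 0.55 ± 0.11 and 0.59 ± 0.18 by the labels, and passed the adjusted threshold in neither comparison.

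Among the 105 detected members, 11 had all Stau1 IP arrays above all control IP arrays after normalization and 12 had them all below, against 9.16% and 12.1% of all targets so detected. ZNF91 and ZNF701 entered the 105 only through the control IP arrays, where they were higher, so the filter favoured their place among the 12. The 11 were ZNF160, ZNF296, ZNF324, ZNF324B, ZNF444, ZNF446, ZNF524, ZNF563, ZNF579, ZNF600 and ZNF784. The 12 were ZNF91, ZNF146, ZNF227, ZNF302, ZNF460, ZNF559, ZNF614, ZNF615, ZNF700, ZNF701, ZNF816A and ZNF823. ZNF91, a known repressor of SVA retrotransposons, had signals of 106, 134 and 165 in the control IPs and of 89.9, 93.4 and 115 in the Stau1 IPs. It was detected on all 3 control IP arrays and on no Stau1 IP array. With undetected values set no lower than the lowest detected, it was 1.29-fold lower in Stau1 IP by the labels. This figure leaves out the spread between arrays, and the difference did not pass the threshold (unadjusted p = 0.0618 in limma).

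Of the members lower in Stau1 IP, ZNF146, a protein made almost wholly of zinc fingers, had signals of 457, 472 and 451 in the control IPs and of 304, 204 and 285 in the Stau1 IPs. Every Stau1 IP array was below every control, and the array labelled Stau1 IP 2 was the lowest of the 6. The log2 fold change was -0.74 ± 0.09 (unadjusted p = 0.000304, adjusted p = 0.141 in limma) by the labels and -0.80 ± 0.08 (adjusted p = 0.0185) without the arrays numbered 2. ZNF614 had signals of 321, 357 and 375 in the control IPs and of 247, 204 and 251 in the Stau1 IPs. The groups did not overlap, and the log2 fold changes were -0.54 ± 0.10 (adjusted p = 0.217 in limma) by the labels and -0.68 ± 0.06 (adjusted p = 0.0140) without the arrays numbered 2. ZNF700 gave 218, 219 and 215 in the control IPs and 166, 145 and 167 in the Stau1 IPs. Its controls lay within a few units of each other and above all Stau1 IP arrays, with log2 fold changes of -0.44 ± 0.09 (adjusted p = 0.263 in limma) and -0.56 ± 0.06 (adjusted p = 0.0194).

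ZNF302, ZNF226, ZNF564 and ZNF473 made up the rest of the 7 that fell without the arrays numbered 2. Their log2 fold changes were -0.56, -0.64, -0.38 and -0.32, with adjusted p of 0.0190, 0.0470, 0.0374 and 0.0468 in limma. ZNF302 had signals of 266, 290.5 and 309 in the control IPs and of 225, 152 and 226 in the Stau1 IPs, with no overlap, and was detected on 3 arrays. ZNF473 encodes a protein of the histone pre-mRNA processing machinery that binds the U7 ribonucleoprotein. Its signals were 256, 285 and 299 in the control IPs and 254, 259.6 and 278 in the Stau1 IPs, and the groups overlapped. On arrays 1 and 3 these signals lay close together, so the ZNF473 value of -0.32 rests in part on the normalization. For ZNF226, ZNF473 and ZNF564 the normalized values on both arrays numbered 2 lay nearer to the other group. All 7 changes were under 2-fold. ZNF580, which did not pass, was among the 4 lowest values without the arrays numbered 2, and its highest and lowest signals were both on Stau1 IP arrays. Its signals were 926, 846 and 745 in the control IPs and 479, 1380.1 and 719 in the Stau1 IPs, and its log2 fold change of -0.65 ± 0.19 (adjusted p = 0.177 in limma) became -0.15 ± 0.40 by the labels.

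The arrays numbered 2 were then read against the 15 members that rose without them. Neither array had entered that fit, although the normalization had used all 6. They had been left out because earlier results showed them to resemble the other group, so this reading is not an independent one. The array labelled control IP 2 lay nearer to Stau1 IP arrays 1 and 3 for 10 of the 15, and the array labelled Stau1 IP 2 lay nearer to control IP arrays 1 and 3 for 12. Of the 1332 targets of the whole array that rose likewise, these shares were 57.4% and 83.0%. Among the 7 members that fell the counts were 5 and 3, against 50.0% and 67.6% of the 1017 targets that fell. For ZNF101, ZNF321, ZNF329, ZNF358, ZNF431, ZNF529, ZNF573, ZNF587, ZNF708 and ZNF791 both arrays lay on the other side, as they did for 53.0% of the 1332 targets. For ZNF444, ZNF579 and ZNF600 both lay on the side of their label, as for 12.5% of those targets. ZNF431 gave the first shape at low signal, with 103, 210.1 and 114 in the control IPs and 226, 104 and 292 in the Stau1 IPs. ZNF791 gave it too, with 215, 361 and 199 in the control IPs and 443, 138 and 446 in the Stau1 IPs. Their log2 fold changes were 0.33 and 0.16 by the labels and 0.86 and 0.69 without the arrays numbered 2, with adjusted p of 0.0208 and 0.0247 in limma. ZNF101 and ZNF321, the latter a transcribed pseudogene, were higher by 0.51 and 0.61 (adjusted p of 0.0133 and 0.0108). ZNF121, ZNF587 and ZNF708 were detected on at most 2 arrays, none of them a control. With undetected values set no lower than the lowest detected, their differences without the arrays numbered 2 were 1.26, 1.18 and 1.13-fold. These figures leave out the spread between arrays. For 10 of the 15 the difference was under 2-fold.

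**Figure D4:**
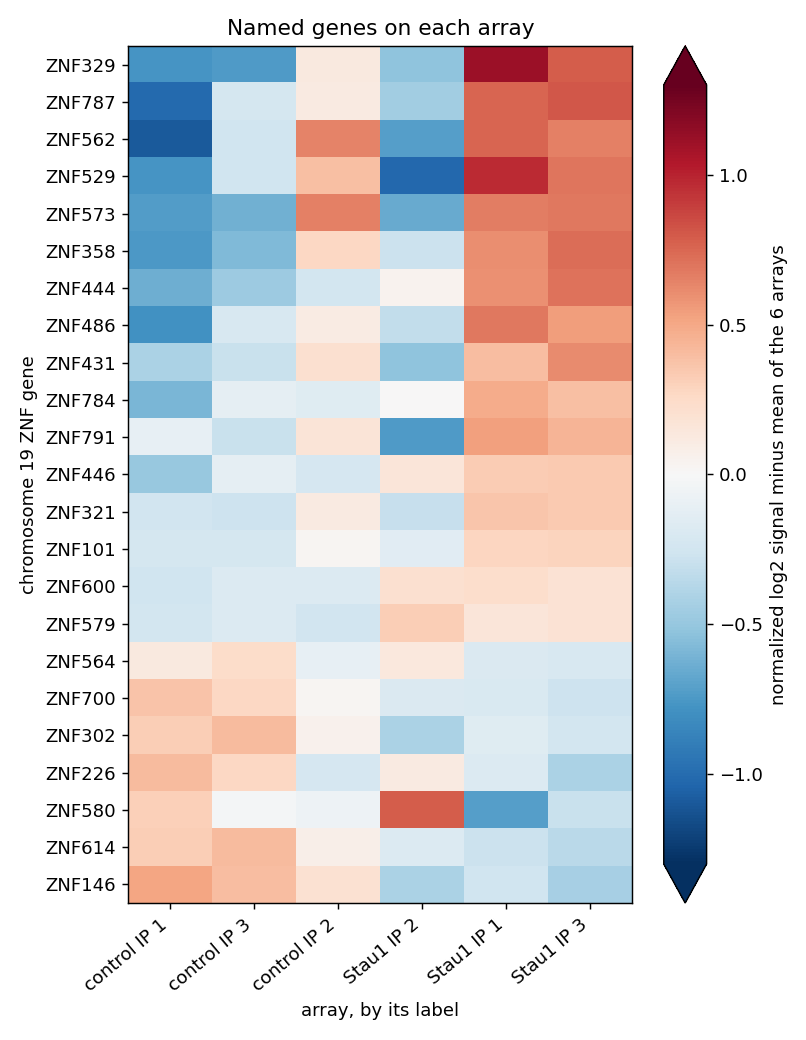
Normalized log2 value of the named chromosome 19 ZNF genes (one line each) on the 6 arrays, each minus the gene's mean over the arrays, with red above and blue below that mean. The upper lines, led by ZNF329, are mostly above their mean on control IP 2, Stau1 IP 1 and Stau1 IP 3 together, while ZNF146, ZNF614 and ZNF700 are low on all 3 Stau1 IP arrays.

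Detection gave a second reading of the same arrays. The set of arrays labelled control IP 2, Stau1 IP 1 and Stau1 IP 3, and no other, detected 4 members (ZNF114, ZNF320, ZNF417 and ZNF573), or 1.84% of the 217 against 0.597% of all targets. ZNF320 had signals of 92.8, 157 and 97.5 in the control IPs and of 145, 90.8 and 196 in the Stau1 IPs. Only Stau1 IP arrays 1 and 3 detected ZNF121 and ZNF587, 0.922% of the members against 0.409% of all targets. Only the 3 control IP arrays detected ZNF91 and ZNF701, 0.922% against 0.206%. Control IP 1 alone detected 5 members and Stau1 IP 1 alone 5, each 2.30% of the members against 0.779% and 0.663% of all targets. The 6 members ZNF14, ZNF45, ZNF260, ZNF548, ZNF776 and ZNF805 were detected on every array but the one labelled Stau1 IP 2. That pattern held 2.76% of the members against 1.31% of all targets. Each pattern named above held a larger share of the members than of all targets, but detection on only some arrays was commoner among members in general. Of the 217 members, 30 were detected on 1 or 2 arrays and 26 on 3 to 5, against 2577 and 2890 of the 37879 targets. Some patterns went the other way, such as detection on the array labelled Stau1 IP 2 alone (0.461% against 0.557%). The array labelled Stau1 IP 2 also detected the fewest targets of the whole array, 11635 against 12226 to 13054 on the others. What part that lower detection had in these patterns was not tested.

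Position within chromosome 19 was compared with the fold changes without the arrays numbered 2, in RefSeq gene order. Over the 104 pairs of neighbouring detected members the Pearson correlation was 0.03, with 57 pairs of the same sign. Over the 34 pairs that are directly adjacent among protein coding genes it was 0.14, with 17 of the same sign. The pairs share the arrays, and a gene can stand in more than 1 pair. ZNF787 and ZNF444, at 1.40 and 1.20, are directly adjacent, as are ZNF615 and ZNF614, at -0.37 and -0.68. Other adjacent pairs differed in sign, such as ZNF561 at -0.32 beside ZNF562 at 1.38, and ZNF234 at 0.33 beside ZNF226 at -0.64. ZNF784, ZNF581 and ZNF580, which follow each other directly, stood at 0.80, 0.15 and -0.65.

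**Figure D5:**
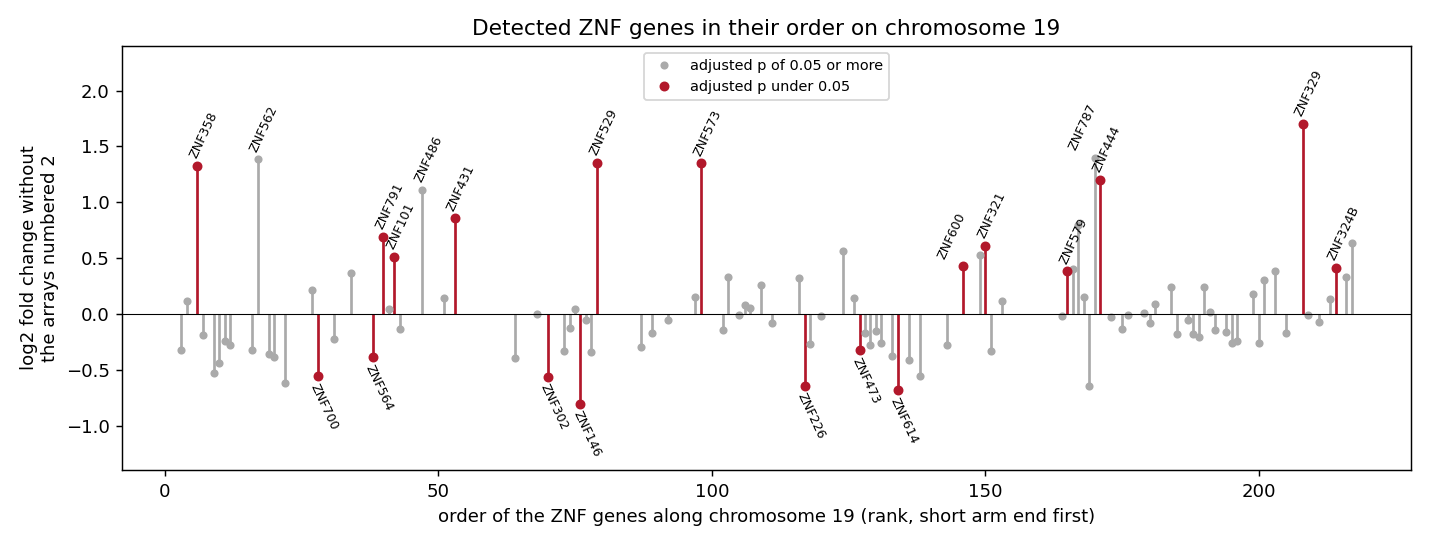
Log2 fold change without the arrays numbered 2 (y axis) of each detected ZNF gene against its rank among the 217 along chromosome 19 (x axis), in red where the adjusted p was under 0.05. High and low values are spread along the chromosome, with ZNF358 (1.33) near one end and ZNF329 (1.70) near the other.

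The partners of KRAB zinc finger proteins were read as a list of 31 genes, which also held ZFP57, itself a KRAB zinc finger protein. All were on the array, and 22 of them were detected on 3 or more arrays. By the labels 0 of the 31 were enriched, depleted or past the adjusted threshold in limma. Without the arrays numbered 2, 2 were higher and 6 were lower at an adjusted p under 0.05, and none reached 2.5-fold. The shares of all targets were 3.52% and 2.68%. All of these genes were among the 22 detected on 3 or more arrays, and the shares of all targets so detected were 9.82% and 7.51%. TRIM28, the corepressor that KRAB domains bind, had signals of 2187, 2786 and 2119 in the control IPs and of 3442, 3919 and 4602 in the Stau1 IPs. All Stau1 IP arrays were above all controls, the array labelled Stau1 IP 2 included, with a log2 fold change of 0.71 ± 0.10 (unadjusted p = 0.000592, adjusted p = 0.151 in limma) by the labels and 0.82 ± 0.11 (adjusted p = 0.0297) without the arrays numbered 2. MBD3, a subunit of the NuRD chromatin remodelling complex, was the other, at 0.79 by the labels and 1.07 (adjusted p = 0.0187) without those arrays. RBBP4, MTA1 and MTA3, which belong to the same complex, were among the 6 lower genes, with DNMT3B, DAXX and SMARCAD1. DAXX, a histone chaperone, had signals of 1272, 958 and 1275 in the control IPs and of 684, 1848 and 733 in the Stau1 IPs, so that the highest value lay on the array labelled Stau1 IP 2. SETDB1 had a log2 fold change of -0.15 by the labels and -0.50 (adjusted p = 0.0534 in limma) without the arrays numbered 2.

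As for the cells, 6 of 6 markers of prometaphase, among them the mitotic cyclin CCNB1 and the kinase PLK1, were detected on all 6 arrays, and so were 4 of 6 markers of HEK293T cells, without PAX2 and LHX1. All 6 arrays came from nocodazole-treated cells, so detection of the prometaphase markers cannot show the arrest. Of 4 markers of other cell types, PTPRC (leukocytes) and ALB (hepatocytes) were detected on no array, while PECAM1 (endothelium) was detected on all 6 arrays and COL1A1 (fibroblasts) on 5. The summed signal of those 4 markers ran from 404 to 484 in the control IPs and from 394 to 455 in the Stau1 IPs, and its part in the results was not tested.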

How the data were processed

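Immunoprecipitated RNA of the 2 groups was hybridized to Illumina BeadChips. For each target the authors deposited a signal intensity, as exported and neither background-subtracted nor normalized. The deposited table also gives, per target, a bead standard error in the same intensity units, a bead count (41 at the median) and a detection p-value. Precision is limited by the number of arrays. Bright targets can carry a detection p above 0.05, for a reason the table does not show.

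From those values the following was computed with limma 3.58.1 and mgcv 1.9-3 in R 4.3.3, and drawn with matplotlib 3.10.9 and pandas 2.3.3 in Python 3.11.15. Background was taken on each array as the median of 200 targets whose detection p lay closest to 0.5, and subtracted. A variance stabilizing transformation was fitted per array to the bead SD in 500 bins, leaving out the lowest 33.3% of signals. Its fitted form acts like log2 of the signal plus a constant of 115 to 160 units, which shrinks the changes of dim targets. Arrays were mapped by a monotone spline with 10 knots onto Stau1 IP 3, the array nearest to the mean. limma's lmFit and eBayes were fitted over all 37879 targets. The thresholds were a fold of 2.5 with an unadjusted p under 0.05, as in the study's methods, and a Benjamini-Hochberg p under 0.05. The steps were tested on simulated arrays, where the fold threshold gave no false call and the adjusted threshold alone let through more unchanged targets than its nominal rate. The changes were planted in bright targets only, and no simulated array resembled the other group. How far these results hold for dim members was not tested.

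The members, lists, comparisons and tests were chosen with earlier results of these data known, and the KRAB and marker lists came from general knowledge. Named were, among members detected on 3 or more arrays, the 12 highest and 4 lowest log2 fold changes without the arrays numbered 2, the 6 highest and 4 lowest by the labels, and members past the adjusted threshold, up to 15 by p. Others in counts or pairs, such as ZNF473, ZNF91 and ZNF320, were named after their values were seen. Groups came from the labels. Same-numbered arrays deviated from their group means with correlations of -0.46, -0.78 and -0.38, signs that the position of the arrays numbered 2 can fix, and without those arrays the 1 correlation left was -0.079, so pairing by number was not shown. Alternatives were neqc (offset 16), quantile normalization, another constant term of the transformation, a detection filter, a 2-fold threshold, the methods' t-test, the replicate block and leaving out each array. A spline onto the array labelled control IP 2 and eBayes with a trend were chosen after seeing the data. Gene order and types were taken from the RefSeq gene table. Protein features and chromosome bands had been planned and were not analysed here.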

Additional observations from a re-analysis of the deposited data

How the results depend on the processing

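By the labels, the counts of enriched members, depleted members and members past the adjusted threshold stayed at 0 under neqc, quantile normalization, another constant term, the detection filter, the 2-fold threshold, the methods' t-test, the replicate block, the spline onto the array labelled control IP 2 and eBayes with a trend. Leaving out 1 array gave 0 to 1 enriched members, the 1 without the array labelled Stau1 IP 2. Without the arrays numbered 2, the 6 enriched members became 3 with neqc (ZNF358, ZNF444 and ZNF787) and 0 with the constant term taken from undetected targets, which shrinks dim changes further, and leaving out 1 array gave 1 to 7. The 22 members past the adjusted threshold became 3 with neqc, 8 with that constant term, 0 with the methods' t-test and 0 to 62 with 1 array left out, where the lone array of a group is assumed to vary like the other group. The replicate block gave 14, of which 12 were among the 22, and left the 6 enriched members at 6, and pairing by number was not shown. Causes of these shifts were otherwise not tested. By the labels, the log2 fold change of ZNF580 moved to 0.027 with neqc. With 1 array left out it ranged from -0.58 to 0.17, and that of ZNF791 ranged from -0.073 to 0.56. With 2 arrays a group, and a scale that compresses signals near background, differences of dim members are limited in size and precision.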
